A study of Mus musculus with 6 samples.

Results

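The genes described here encode the proteins of the cytosolic ribosome, the particle that translates nuclear messenger RNAs. They were taken by name from the array's own annotation: Rpl or Rps followed by a number, with an optional letter and digit, Rplp0 to Rplp2, and Rpsa, leaving out names marked as pseudogenes. This gave 183 of the 55681 non-control probes, for 83 of 36163 gene names. Of these probes, 176 for 80 genes were tested, having passed the filter of a signal well above background on 3 or more arrays, and each of the 176 was so on all 6. Of the tested probes, 111 belong to 48 genes of the large subunit and 65 to 32 genes of the small subunit. The 7 probes left out included those of Rpl3l, Rpl39l and Rpl10l and 1 probe each of Rps15a and Rps27a.

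RNA came from the jejunum of 6 male C57BL/6J mice. Of these, 3 received 100 mg/kg of VND3207 intragastrically, a compound which the labels name only by this code, and 3 received the same volume of vehicle. Each of the 6 mice was irradiated with 9 Gy, 0.5 h after dosing, and the jejunum was collected 6 h after irradiation. Both groups thus carry the effect of radiation, and VND3207 is set against vehicle in irradiated jejunum only. The groups also differ in slide and scan, as described below, so a difference between them cannot be credited to VND3207 alone. Unirradiated tissue was not analysed here, and the labels give 3 mice and 3 arrays in each group.

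A ribosome carries each of its proteins once, apart from the acidic stalk proteins, and mammalian cells make these proteins in near-equal amounts. Their messenger RNAs start with a short run of pyrimidines, the 5′ terminal oligopyrimidine or TOP tract, through which mTORC1 signalling controls their translation together rather than their level. When ribosome assembly is disturbed, Rpl5 and Rpl11, bound to 5S ribosomal RNA, can bind Mdm2 and so stabilise p53. In the crypts of the intestine, dividing progenitor cells depend on high ribosome production.

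The arrays carry several probes of 60 bases for most of these genes, up to 7 tested probes for one gene, and 54 of the 80 genes had more than 1 tested probe. Probes of the same gene gave different results, so the sequences of some probes are shown first, 5′ to 3′ as in the files. Positions are on mm9, the build named in the file headers. Not every gene shown had unequal probes. Rpl4 had 1 tested probe, and the other probes of Rps3 and Rpl24 did not differ from the brightest in the test described below. Probes that hold the hexamer AATAAA, the canonical polyadenylation signal found near the 3′ end of messenger RNAs, are shown as 30 bases with the hexamer in capitals. The others are shown whole. Each hexamer probe shown fell with VND3207, while other hexamer probes, such as that of Rplp2, did not pass.
Rpsa, chr9:120040617-120040676, with the hexamer: agatggaaggaaAATAAAgttgctaaaagc
Rpsa, chr9:120040269-120040849, whole: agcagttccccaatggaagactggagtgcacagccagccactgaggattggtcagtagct
Rps12, chr10:23505428-23505711, whole: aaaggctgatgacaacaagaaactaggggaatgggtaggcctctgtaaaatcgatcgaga
Rps3, chr7:106627408-106627786, with the hexamer: gatgctaccttgtaaagacatttAATAAAa
Rpl4, chr9:64026265-64026324, with the hexamer: acagcatatttcAATAAAtcaaacatgtgg
Rpl24, chr16:55971488-55971547, with the hexamer: agcagagttggaAATAAAgctctatcttta
A span longer than 60 bases, as for both whole probes and the Rps3 probe, means that the probe joins sequence from separate parts of the gene. The files place a pair of Rpl7a probes at the same position, chr2:26768759-26768818, although their sequences differ at 6 of 60 bases. In the 30 bases shown, the first 5 of the differing bases are in capitals.
Rpl7a, first probe: atTgGgttaaatgtaTGctGaattttctgt
Rpl7a, second probe: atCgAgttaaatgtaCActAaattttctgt
Counted from 1 at the 5′ end of the whole probe, the differences of the second probe from the first were T24C, G26A, T37C, G38A, G41A and A52C.

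All 3 vehicle arrays were on slide 1 and scan 1 and all 3 VND3207 arrays on slide 2 and scan 2, so slide, scan and treatment cannot be told apart in any value below. The share of spots well above background was between 58.8% and 61.4% on the VND3207 arrays and between 66.7% and 70.0% on the vehicle arrays, control spots left out. In the brightest range of the arrays, above 8 on the log2 scale relative to the 75th percentile, the median difference of all tested probes was -0.42, against -0.11 between 6 and 7 and 0.04 between 0 and 4. Most ribosomal protein probes lie in the bright ranges. Enterocyte markers, which define the main epithelial cell of this tissue, were bright on all arrays and fell for 5 of 8 genes, with a summed log2 level of 10.8 to 11.0 on VND3207 arrays and 11.3 to 11.6 on vehicle arrays, among them Fabp1 by 0.82, Anpep by 0.77, Fabp2 by 0.58 and Lct by 0.39. After quantile normalization 0 of the 8 were lower, and after cyclic loess 2. Paneth cell markers fell for 3 of 5 genes (Defa26 by 0.94, Lyz1 by 0.65 and Itln1 by 0.41), at summed levels of 9.45 to 9.52 with VND3207 and 9.92 to 10.2 with vehicle, and 1 was lower after quantile normalization and 2 after cyclic loess. Of the other cell types, the T cell co-receptor gene Cd4 fell by 1.18 (1 of 6 markers) and the macrophage integrin gene Itgam by 0.75 (1 of 5). The endothelial genes Kdr and Pecam1 fell by 0.60 and 0.56 (2 of 5). Yet 5 of 6 T cell markers, 3 of 5 macrophage markers and 3 of 5 endothelial markers lay above 0. The medians of these lists were 0.18, 0.15 and 0.00. The pancreatic enzyme gene Cpa1, far below the 75th percentile on all arrays, fell by 2.78 (1 of 5). No marker of goblet cells, B cells, smooth muscle or fat passed, although summed smooth muscle levels ran from 5.86 to 8.02 on VND3207 arrays and from 7.72 to 8.07 on vehicle arrays. The part of any of these in the ribosomal protein values was not tested. In bulk tissue, fewer cells of a type and less RNA per cell cannot be told apart.

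Across the 176 ribosomal protein probes, 27 fell and 0 rose with VND3207 at an adjusted p under 0.05 (limma, adjusted by Benjamini-Hochberg over all 36123 tested probes). That is 15.3% of the probes, beside 14.5% of all tested probes. Of the 5255 tested probes that fell, however, 4657 had a mean signal below 0, where only 8 ribosomal protein probes lie and none fell. On probes brighter than the 75th percentile, a comparison added after the data were seen, 30 of 168 ribosomal protein probes were lower, 17.9%, against 4.32% of all. The sets differ in brightness, since 9779 of all tested probes but 9 ribosomal protein probes lie between 0 and 4. In that range 3.09% of all fell. Of all tested probes 0.922% rose. Without adjustment, 48 ribosomal protein probes were lower and 6 higher at p under 0.05 (limma). These unadjusted counts have no share of all tested probes beside them, so they are not read as a trait of the family. The median log2 difference, VND3207 minus vehicle, was -0.10 for ribosomal protein probes and -0.06 for all tested probes. The sign of the median turned with the normalization, since it was 0.11 after quantile normalization, with 7 probes lower and 3 higher, and 0.01 after cyclic loess, with 11 lower and 1 higher. Quantile normalization moved the median of all tested probes by 0.11 and that of ribosomal protein probes by 0.21. Relative to the median of all tested probes, the family's median was -0.03 with 75th percentile scaling, 0.06 after quantile normalization and -0.03 after cyclic loess. Of all tested probes 8.96% were lower and 2.57% higher after quantile normalization. Cyclic loess gave 9.87% lower and 2.81% higher. The count of 27 also depended on each array, with 6 probes lower without vehicle replicate 2, 8 without VND3207 replicate 1, 11 without vehicle replicate 1, vehicle replicate 3 or VND3207 replicate 2, and 14 without VND3207 replicate 3. Without the same arrays in turn, 8.19%, 10.5%, 11.5%, 11%, 10.3% and 14% of all tested probes were lower.

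Set against all tested probes of like brightness, themselves included, ribosomal protein probes were no lower at the top of the range. Above a signal of 8 the median of 13 ribosomal protein probes was -0.15, against -0.42 for all 133 probes there. Between 7 and 8 the medians were -0.18 for 53 ribosomal protein probes and -0.22 for all 438. Between 6 and 7 they were -0.09 for 55 and -0.11 for all 663, and between 5 and 6 they were -0.11 for 29 and -0.04 for all 872. The share that fell also varied with the range. Between 5 and 6 it was 24.1% of ribosomal protein probes against 5.73% of all, and between 6 and 7 it was 16.4% against 10.3%. Between 7 and 8 it was 17.0% against 18.7%, and above 8 it was 7.69% against 43.6%. On 72 of the 176 probes every VND3207 array lay below every vehicle array, 40.9% against 24.9% of all tested probes, and on 14 every VND3207 array lay above, 7.95% against 9.41%.

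**Figure D1:**
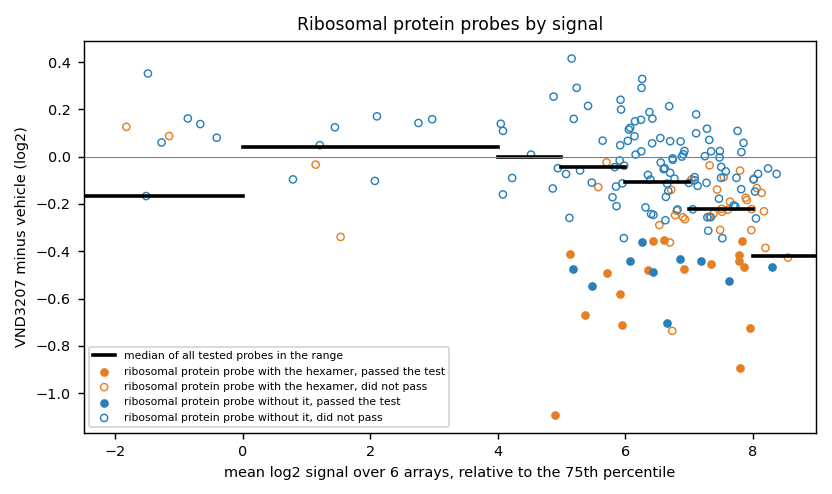
Log2 difference, VND3207 minus vehicle, of each tested ribosomal protein probe against its mean log2 signal over 6 arrays relative to the 75th percentile (points), with the median of all tested probes in each signal range as black bars. Filled points passed the test, and orange points mark probes with the polyadenylation hexamer. The points that passed all lie below 0 and at signals above 4, and orange points above a signal of 5 all lie below 0.

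The per-array medians showed how small the common part was. For each probe the mean over the 6 arrays was subtracted and the median taken over the 176 probes. These medians were -0.06, 0.00 and -0.11 on the VND3207 arrays and 0.08, 0.07 and 0.01 on the vehicle arrays. The groups did not overlap, but the gap between the nearest arrays was smaller than the spread within either group. After quantile normalization the medians were 0.10, 0.09 and -0.04 with VND3207 and -0.02, -0.09 and -0.02 with vehicle, and the groups overlapped.

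**Figure D2:**
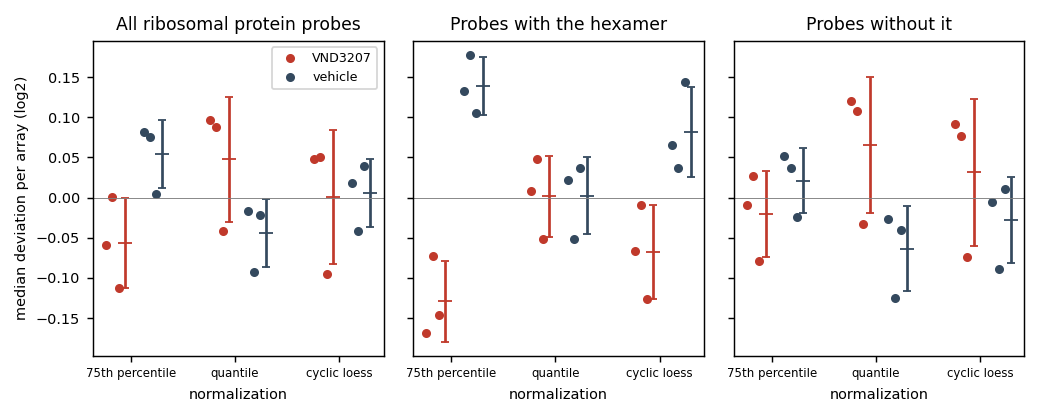
Median deviation of ribosomal protein probes from each probe's own mean, per array, on the log2 scale, for all 176 probes, the 53 with the polyadenylation hexamer and the 123 without it, under 3 normalizations. Points are arrays, VND3207 in red and vehicle in dark blue, and bars are the mean and SD of 3 arrays. With 75th percentile scaling the hexamer probes separate the groups by more than the SD, and after quantile normalization the groups overlap in that panel.

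A gene was represented by its brightest probe, and on that probe 13 of 80 genes fell and 0 rose, or 16.3%, against 14.1% of all gene names lower and 0.917% higher. The 80 genes had a median difference of -0.11, and all gene names one of -0.05. In all, 20 genes had at least 1 probe that fell. This count rises with the number of probes a gene has and has no share of all gene names beside it. On 7 probes of 4 genes (Rpl17, Rpl7a, Rps3 and Rpsa) the fall also passed after quantile normalization and after cyclic loess. These 7 were all the ribosomal protein probes lower after quantile normalization, 3.98% against 8.96% of all tested probes. After cyclic loess 6.25% of ribosomal protein probes were lower, against 9.87% of all. The family's share was below that of all probes under both, but these sets differ in brightness. At signals over 5, quantile normalization left 4 of 48 ribosomal protein probes with the hexamer lower, against 36 of all 480. Without the hexamer it was 2 of 102 against 65 of 1626. Cyclic loess gave 6 of 48 against 55 of 480 with it, and 4 of 102 against 92 of 1626 without it. The lower share of the family is therefore not read apart from brightness. The falls of Rpsa and Rpl7a passed on their brightest probes with any single array left out, and that of Rps3 with any but vehicle replicate 2. The Rpl23 fall was lost without vehicle replicate 2 or VND3207 replicate 1. Those of Rpl4 and Rpl24 passed without VND3207 replicate 3 and with no other array left out, and those of Rplp0, Rps24 and Rps4x with none left out. By role, 1 of 9 genes lining the exit tunnel fell on its brightest probe (Rpl4) and 1 of 18 genes mutated in Diamond-Blackfan anaemia in humans (Rps24).

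Among small subunit genes, Rpsa had the largest fall on a brightest probe. Rpsa, also known as the laminin receptor precursor, sits near the exit of the messenger RNA channel. Its brightest probe read 7.26, 7.44 and 7.34 on the VND3207 arrays and 8.14, 8.38 and 8.21 on the vehicle arrays. The groups were far apart on this probe, with a difference of -0.89 ± 0.11 (SE, n = 3 and 3, limma adjusted p = 0.00465). The other 3 Rpsa probes had differences of -0.18, 0.01 and -0.17, and none of them passed. Rps3, which lines the entry of the messenger RNA channel, read 5.62, 5.72 and 5.56 with VND3207 and 6.23, 6.27 and 6.15 with vehicle on its brightest probe. Its difference was -0.58 ± 0.10 (SE, adjusted p = 0.0122), and a further probe, which the files place on no chromosome, had -0.67 ± 0.11 (adjusted p = 0.0113). Both Rps3 falls passed under quantile normalization and cyclic loess.

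Rps24, one of the genes mutated in Diamond-Blackfan anaemia in humans, had -0.47 ± 0.10 (SE) on its brightest probe (adjusted p = 0.0252) and -0.44 ± 0.10 on a second (adjusted p = 0.0295). Its other tested probes, at -0.34 and -0.05, did not pass. Rps4x read 5.85, 5.93 and 5.80 with VND3207 and 6.35, 6.28 and 6.27 with vehicle, a difference of -0.44 ± 0.09 (adjusted p = 0.0266). Rps21 (-0.41) and Rps15a (-0.36) also fell on their brightest probes. No array of one group reached into the other group's range on any of these 4 brightest probes. After quantile normalization none of the 4 passed, with differences from -0.35 for Rps21 to -0.13 for Rps24, and none passed after cyclic loess.

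Of the remaining proteins at the entry of the messenger RNA channel, Rps2 and Rps9 did not pass, with differences of -0.09 and 0.07. On the exit side, Rps14, Rps26 and Rps28 had -0.43, -0.11 and -0.09, and none of these passed. Rps14 was also among the 3 brightest genes, and it read 8.23, 8.42 and 8.36 with VND3207 and 8.69, 8.92 and 8.70 with vehicle. These values did not overlap, yet the adjusted p was 0.0567. At the other end of the small subunit genes, Rps18, whose protein lies in the head of the subunit, had differences of 0.29 and 0.41 on its pair of probes, the second being the highest value of any ribosomal protein probe, and neither passed (adjusted p = 0.184 and 0.124).

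Among large subunit genes, Rpl7a had the largest fall on a brightest probe. It read 6.28, 6.28 and 6.37 on the VND3207 arrays and 7.04, 7.01 and 7.0 on the vehicle arrays. The arrays within each group lay close together and the groups far apart, and the difference was -0.71 ± 0.09 (SE, adjusted p = 0.00502). Rpl23, at the face that meets the small subunit and known to bind Mdm2, read 7.30, 7.43 and 7.37 with VND3207 and 7.86, 7.97 and 7.84 with vehicle, and differed by -0.53 ± 0.10 (adjusted p = 0.016). Rpl4, which lines the tunnel through which the growing protein leaves, had -0.48 ± 0.09 (adjusted p = 0.0194). Rpl24, which bridges the subunits, had -0.45 ± 0.10 (adjusted p = 0.026), and Rpl8, near the peptidyl transferase centre, had -0.42 ± 0.10 (adjusted p = 0.0354). Of these 5 falls, that of Rpl7a passed after quantile normalization, and those of Rpl7a and Rpl23 passed after cyclic loess.

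The stalk, which recruits elongation factors, gave unlike values for its parts. Rplp0, its base protein, read 7.97, 8.16 and 8.08 with VND3207 and 8.52, 8.59 and 8.49 with vehicle, and its difference was -0.47 ± 0.10 (SE, adjusted p = 0.0265). A second Rplp0 probe had -0.34 ± 0.10 and did not pass. One further probe, at -0.74 ± 0.31, did not pass either, and on it 1 of the VND3207 arrays lay far below the other arrays. It read 6.70, 5.63 and 6.78 with VND3207 and 7.20, 7.02 and 7.10 with vehicle. The acidic proteins Rplp1 and Rplp2 had 0.02 ± 0.10 and -0.15 ± 0.10, and Rpl12, which binds beside Rplp0, had 0.12 ± 0.09, and none of the 3 passed. The Rplp0 fall was lost after quantile normalization (-0.02, adjusted p = 0.917) and after cyclic loess (-0.29, adjusted p = 0.104).

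The 5S particle proteins did not pass on their brightest probes and lay on either side of 0. Rpl5 read 5.59, 5.53 and 5.45 with VND3207 and 5.44, 5.13 and 5.35 with vehicle, with a difference of 0.21 ± 0.12 (SE, adjusted p = 0.323). Rpl11 read 7.56, 7.73 and 7.58 with VND3207 and 7.85, 7.89 and 7.76 with vehicle, with -0.21 ± 0.10 (adjusted p = 0.254). One of the other Rpl11 probes fell, by 0.36 on the log2 scale (adjusted p = 0.0448).

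The paralogs of core proteins, near-copies that can replace them in some tissues, did not pass. Rps27l, a p53 target, read 6.45, 6.55 and 6.49 with VND3207 and 6.87, 6.80 and 6.63 with vehicle. Its values did not overlap between groups, and its difference was -0.27 ± 0.11 (SE, adjusted p = 0.167). Rpl22l1 had -0.11 ± 0.10 and Rpl7l1 0.08 ± 0.13. The probes of Rpl3l, Rpl10l and Rpl39l, known from muscle and testis, were not well above background on 3 arrays. The remaining genes at the ends of the signal range were Rpl41 among the brightest, at -0.07, and Rpl21 and Rps4y2 among the dimmest, at 0.16 and -0.16, and none of these passed.

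**Figure D3:**
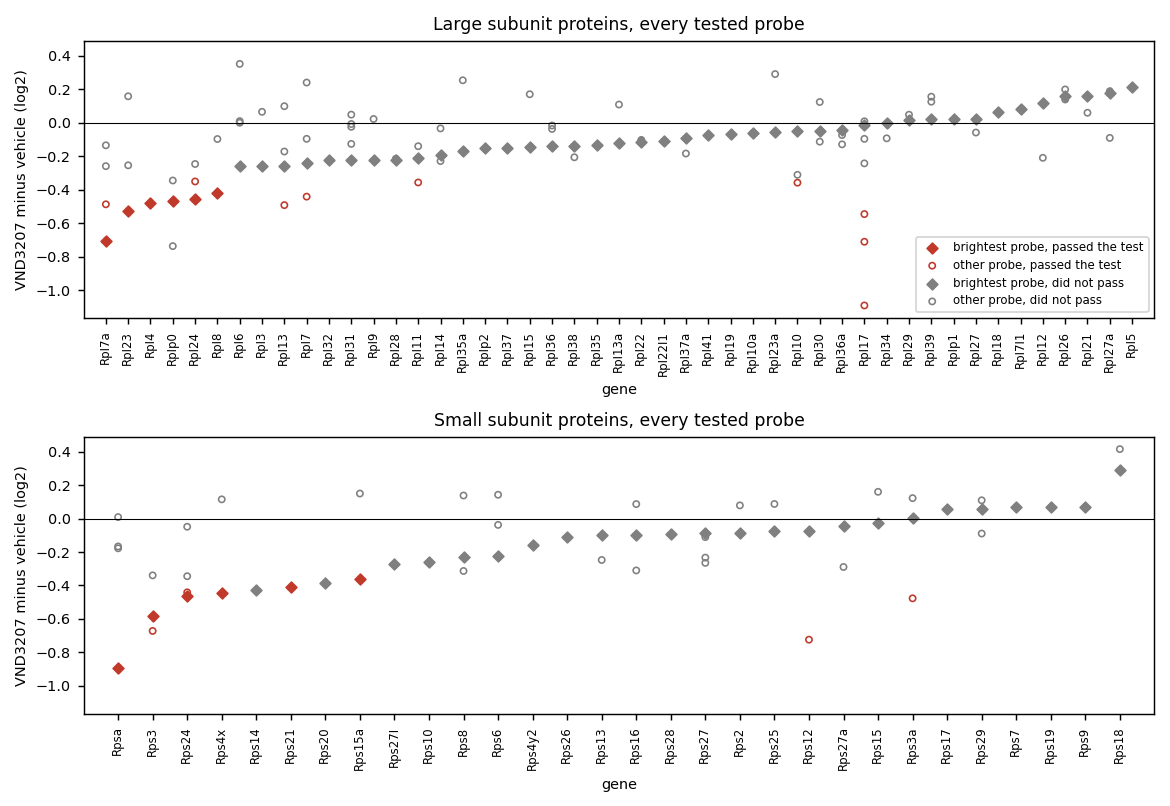
Log2 difference, VND3207 minus vehicle, of every tested probe, by gene and ordered by the brightest probe, for large subunit genes above and small subunit genes below. A few genes are not shown. Diamonds are brightest probes, circles are other probes, and red marks probes that passed the test. Red points lie below 0 in both panels, and genes such as Rpl17, Rps12 and Rps3a have red circles far below a grey diamond near 0.

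Probes of the same gene disagreed by more than the spread between arrays in 13 genes. For each of the 54 genes with 2 or more tested probes, the log2 ratio of each other probe to the brightest one was taken on every array, which removes any scaling common to the whole array, and the ratios were fitted like the signals. Of 96 such ratios 18 differed between VND3207 and vehicle, 18.8%, against 8.21% of 5613 ratios over all named genes. A ratio shows that the probes changed unequally and says nothing of which one changed. The count was 18 after quantile normalization (8.41% of all ratios) and 19 after cyclic loess (9.14%), but between 1 and 10 when any single array was left out: 1 without vehicle replicate 2, 1 without VND3207 replicate 2, 5 without VND3207 replicate 1, 6 without vehicle replicate 3, 7 without VND3207 replicate 3 and 10 without vehicle replicate 1. Without the same arrays in turn, 0.695%, 0.873%, 1.94%, 2.94%, 4.2% and 4.15% of all ratios differed.

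Rpl17, which lines the exit tunnel, had the widest spread of any gene. On its brightest probe it read 6.79, 6.70 and 6.73 with VND3207 and 6.75, 6.76 and 6.75 with vehicle, a difference of -0.01 ± 0.09 (SE). On another probe it read 4.38, 4.45 and 4.22 with VND3207 and 5.39, 5.49 and 5.45 with vehicle, a difference of -1.09 ± 0.10 (adjusted p = 0.00252), the largest of any ribosomal protein probe. Its 7 tested probes thus ran from -1.09 to 0.01, with a further pair at -0.71 and -0.55 that also passed.

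Rps12, in the beak of the small subunit, showed the pattern plainly with its pair of bright probes, 1 of them printed whole above. On the whole probe it read 8.0, 8.11 and 8.03 with VND3207 and 8.10, 8.16 and 8.10 with vehicle, a difference of -0.07 ± 0.09 (SE). On the hexamer probe it read 7.54, 7.64 and 7.62 with VND3207 and 8.27, 8.40 and 8.29 with vehicle, a difference of -0.72 ± 0.10 (adjusted p = 0.00545) that missed the threshold after quantile normalization (adjusted p = 0.0519). The ratio of the probes differed by -0.65 ± 0.07 (adjusted p = 0.0124).

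For Rpsa, the whole probe read 7.39, 7.42 and 7.33 with VND3207 and 7.51, 7.67 and 7.50 with vehicle, and its ratio to the hexamer probe differed by 0.72 ± 0.08 (SE, adjusted p = 0.0134). Rps3a fell on 1 probe, which read 4.93, 5.04 and 4.86 with VND3207 and 5.39, 5.45 and 5.41 with vehicle, while its brightest probe differed by 0.00. The pair of Rpl7a probes that the files place at one position had differences of -0.71 and -0.26, and their ratio differed by 0.45 ± 0.09 (adjusted p = 0.0372), though not after quantile normalization (adjusted p = 0.0628). Other genes with unequal probes included Rpl13, Rpl23, Rpl35a, Rpl6, Rpl7, Rps15a and Rps4x. Rpl7, also among the 5 genes with the widest spread, ran from -0.44 to 0.24 over 4 probes, and Rpl23, likewise among them, from -0.53 to 0.16 over 3.

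**Figure D4:**
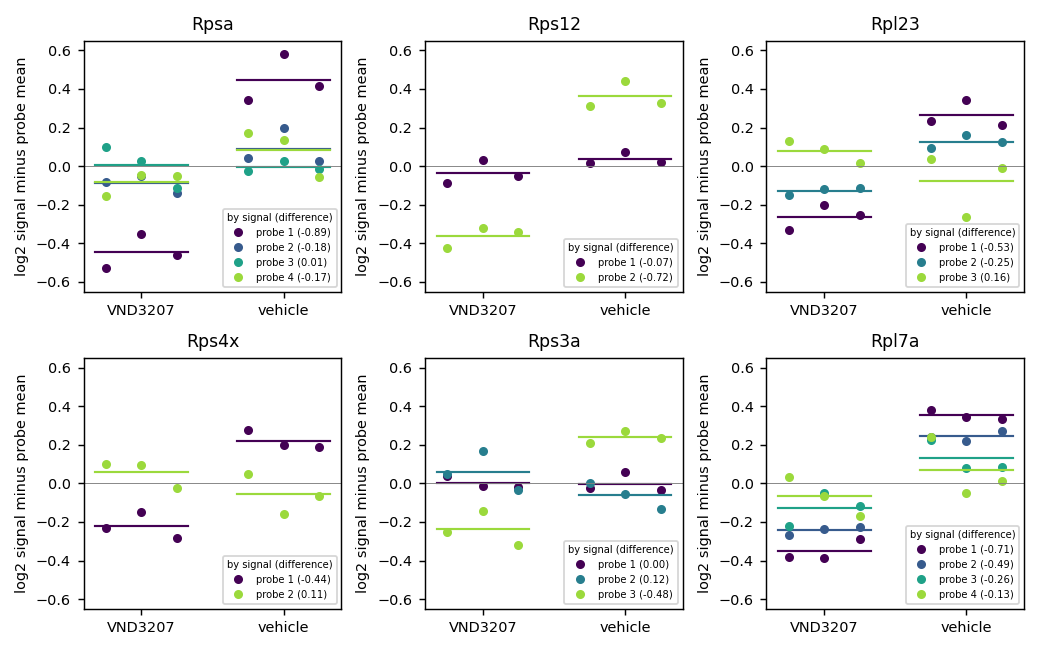
Log2 signal of each probe minus its mean over 6 arrays, VND3207 arrays on the left and vehicle arrays on the right of each panel, for 6 genes whose probes disagreed. Points are arrays, lines are group means, and probes are numbered by signal with their VND3207 minus vehicle difference in brackets. In Rpsa and Rps12 1 probe separates the groups widely while others of the same gene stay near 0.

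The gene behind some of these probes is uncertain. Of 125 tested probes whose gene has a start site in the RefSeq table, the files place 8 on another chromosome than the gene: all 4 probes of Rps27, a pair for Rpl13, and 1 each for Rpl31 and Rps4x. The Rps4x probe placed on chromosome 3 had a difference of 0.11, and the one placed on the X chromosome had -0.44. The pair of Rpl13 probes placed on chromosome 4 had 0.10 and -0.17, and the brightest one, on chromosome 8, had -0.26. Only chromosomes were compared, so a probe placed elsewhere on the same chromosome is not among these. Probes of genes with no start site in that table were not compared. Among those, an Rpl36 probe is placed on the X chromosome and its other tested probes on chromosome 17. The Rps2 probes lie far apart on chromosome 17. The brightest, at 42864841, had -0.09, and the other, at 24857583, had 0.08.

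Ribosomal protein probes that hold the hexamer were lower than those without it. This split was made after the values were seen and is given as a description. The hexamer was present in 53 of 176 ribosomal protein probes, 30.1%, and in 11.3% of all tested probes. The 53 probes had a median difference of -0.26, and 51 of them were below 0. The 123 other probes had a median of -0.05, with 71 below 0. Of the probes with the hexamer 17 fell, 32.1% against 10.5% of all tested probes with it, and of those without it 10 fell, 8.13% against 15.1%. At signals over 5 the shares were 33.3% against 19.2% with the hexamer and 9.80% against 10.2% without it. Over all tested probes the medians were alike, at -0.07 with the hexamer and -0.06 without it. Among all probes with a signal over 5, which include the ribosomal protein probes, they were -0.18 for 480 probes with it and -0.09 for 1626 without it.

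The same split held within genes. In 27 genes that had both kinds of probe, the hexamer probes were lower on average in 23, with a median of -0.16 for the difference between the kinds. Over the 1159 named genes with both kinds it was -0.02, with 606 genes lower. The widest such gaps were those of Rpsa (-0.78), Rpl17 (-0.72) and Rps12 (-0.65), and Rps25 lay at 0.16 in the other direction. Per array, the median of the hexamer probes was -0.17, -0.07 and -0.15 with VND3207 and 0.13, 0.18 and 0.11 with vehicle. The median of the other probes was -0.01, 0.03 and -0.08 with VND3207 and 0.05, 0.04 and -0.03 with vehicle, so the groups were apart in the first set and overlapped in the second. After quantile normalization the medians over probes were -0.03 with the hexamer and 0.14 without it, and after cyclic loess -0.14 and 0.06.

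Hexamer probes also differed in base content and brightness. Their median adenine content was 35%, against 31.7% in the other ribosomal protein probes, their median GC content 36.7% against 45.0%, and their median signal 7.32 against 6.43. Across the 176 probes the difference correlated with adenine content at a Spearman rho of -0.37, with GC content at 0.33 and with signal at -0.34, over probes that share the same 6 arrays. Among probes of 30% to 35% adenine, the median was -0.21 for 16 probes with the hexamer and -0.05 for 44 without it. Above 35% it was -0.35 for 25 with the hexamer and -0.16 for 24 without it. Which of these properties goes with the difference was not tested.

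At the start of the genes, the RefSeq table on GRCm38.p6 held 61 of the 83 names. A pyrimidine run of at least 8 bases (C or T on the strand of the gene) lay within the 15 bases before and the 15 bases after the start in 27 of these 61 genes, 44.3%, against 13.9% of 27025 genes in the table. The stretches of Rpl7a and Rpl4, which fell and hold such a run (in capitals), are shown. That of Rpsa, which fell and whose longest run there has 5 bases, is shown beside them. Rps3, Rpl23 and Rplp0 also fell, and their longest runs there have 3, 3 and 5 bases. The Rpl7a run crosses the annotated start. The Rpl4 run lies wholly before it, so that run is not within the annotated messenger RNA.
Rpl7a, chr2:26910792-26910821, plus strand: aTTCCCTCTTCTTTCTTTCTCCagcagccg
Rpl4, chr9:64173372-64173401, plus strand: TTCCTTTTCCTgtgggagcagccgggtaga
Rpsa, chr9:120127751-120127780, plus strand: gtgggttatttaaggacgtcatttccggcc

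Other genes of ribosome production and translation were compared on their brightest probes. Of 4 ribosomal proteins named otherwise 2 fell. Gnb2l1, which encodes the scaffold Rack1 of the small subunit, differed by -0.52 ± 0.09 (SE, adjusted p = 0.0139). Of 39 translation factors 1 fell and 1 rose. Eef1a1, the factor that brings transfer RNAs to the ribosome, fell by 0.36 (adjusted p = 0.0485), and Etf1, a release factor, rose by 0.42 (adjusted p = 0.041), a rise that missed the threshold after quantile normalization (adjusted p = 0.0541). Other TOP messenger RNAs, a list of 19, had a median of -0.03, and 3 of them fell, Gnb2l1 and Eef1a1 among them. None of these falls passed after quantile normalization or cyclic loess.

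Mitochondrial ribosomal proteins, the counterpart of the family in a separate ribosome, had a median of 0.05 over 75 genes, and 1 of them passed, Mrps5, which rose by 0.56 ± 0.12 (SE, adjusted p = 0.0237). It read 1.12, 1.30 and 1.15 with VND3207 and 0.70, 0.72 and 0.48 with vehicle. Of 38 ribosome biogenesis factors none passed on its brightest probe, and 29 lay above 0, with a median of 0.11. Over all 57 tested probes of that list 1 rose. Among 12 genes of RNA polymerase I transcription, Taf1b rose by 0.42 ± 0.09 (SE, adjusted p = 0.0322), and the list's median was 0.12. Among 13 regulators of mTORC1 and TOP translation 12 lay above 0, with a median of 0.13. Mtor, the kinase itself, read 0.16, 0.03 and -0.03 with VND3207 and -0.31, -0.46 and -0.40 with vehicle, a rise of 0.44 ± 0.10 (SE, adjusted p = 0.0353) that also passed after quantile normalization and after cyclic loess. None of the 6 genes measured on the path from ribosomal stress to p53 passed, and their median was 0.00. The probes of these lists lie in another signal range than those of the ribosomal protein genes. The median signal was 0.70 for RNA polymerase I transcription, 0.83 for the mTORC1 list and 2.29 for biogenesis factors, against 7.19 for the ribosomal protein genes, and all tested probes between 0 and 4 had a median difference of 0.04.

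**Figure D5:**
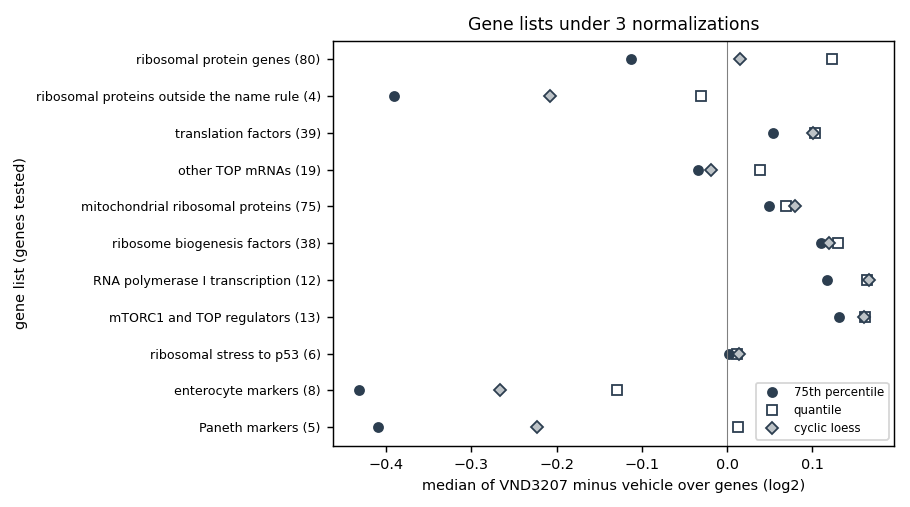
Median log2 difference, VND3207 minus vehicle, over the brightest probes of the genes of each list, under 3 normalizations, with the number of genes tested in brackets. The ribosomal protein genes lie at -0.11 with 75th percentile scaling and on the other side of 0 under both alternatives, while the lists of ribosome biogenesis, RNA polymerase I and mTORC1 regulators lie above 0 under all 3.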

How the data were processed

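Total RNA was labelled with Cy3 and hybridised to 1-colour arrays of 62976 spots with probes of 60 bases. Spots were read with Agilent Feature Extraction 10.7.1.1, per the submitters' processing notes. Per the file headers, the intensity deposited by the authors is the processed signal, background-subtracted and detrended within the array. The authors' deposited log2 table has 6 columns with one median (6.05). Its making is not given in the sources used here, and each column correlated with that array's log2 signal at an r of 0.997 or more, so its scale is log2 and its direction that of the signal. Its centring is the same for all arrays, and its 75th percentile lay between 9.41 and 9.42 on each. The median over ribosomal protein probes was 0.11 with it, as after quantile normalization, so it is not read as an alternative independent of that one. Its processing is otherwise unknown. All value columns were matched to samples, leaving 0 unmatched.

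Control spots and outlier spots were left out, and spots of a probe were averaged. The log2 signal minus the array's 75th percentile over non-control spots was used throughout, and a level here is this value. Brightness is not comparable between probes. Probes well above background on at least 3 of 6 arrays were kept, 36123 in all, of which 35 lack a value on an array and none is a ribosomal protein probe. VND3207 was compared with vehicle by limma 3.58.1 (lmFit and eBayes, 2-sided) under R 4.3.3, and p-values were adjusted by Benjamini-Hochberg over all tested probes, with a threshold of 0.05. Errors after ± are its standard errors. The number of arrays limits the precision, and the 3 samples a group are the only replicates. Permutation of single values could not go below 0.10 here and was not used. The fit was tested on simulated data.

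The members, the 25 gene lists and the tests were chosen with earlier results of these data known. Named genes were, on the brightest probe, the 10 largest falls and rises past the threshold, all measured members of the stalk, 5S particle, entry, exit and paralog lists, the 3 brightest and 3 dimmest genes, the 5 genes with the widest spread between probes, and up to 4 members past the threshold of every other list. Other names were chosen after their values were seen, and some items are not reported here. Probe ratios within genes leave out loci named only by position. Alternatives were quantile and cyclic loess normalization, median centring, normexp (offset 50), the deposited table, other filters, probe choices, variance models and thresholds, the replicate block, and each array left out. Slide and scan could not be fitted, since each holds 1 group. Probe positions are those of the files, and start sequences are from RefSeq, GRCm38.p6. Analyses were run with pandas 2.3.3.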

Additional observations from a re-analysis of the deposited data

How the results depend on the processing

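The median over ribosomal protein probes, -0.10, reversed to 0.11 with quantile normalization, 0.0075 with cyclic loess and 0.11 with the deposited table, and stayed between -0.13 and -0.06 under the other alternatives. Probes lower, 27, became 7 with quantile normalization, 11 with cyclic loess and 8 with the deposited table (8.79% of all probes). They became 15 with no filter on dim probes (9.9%), 43 with an intensity trend and robust prior (14.4%) and 31 with normexp (7.84%). On probes brighter than the 75th percentile they were 30 of 168 (4.32%). They were 7 with the replicate block (9.44%), 5 at an adjusted p under 0.01 (7.01%) and 6 to 14 with 1 array left out. Counted by gene, 14 of 80 were lower with 1 probe a gene, 17.5% against 14.2% of all. With the mean of a gene's probes 9 of 80 were lower, 11.25% against 14.9% of all. Probes higher, 0, became 3 with quantile normalization, 1 with cyclic loess, 3 with the deposited table and 1 at an adjusted p under 0.1. The medians of hexamer and other probes differed by -0.21, by -0.15 with the mean of a gene's probes, and by -0.24 to -0.15 over all settings run. Within-gene ratios that differed, 18, became 0 with the replicate block (0 over all 5613 ratios), 35 of 90 on probes brighter than the 75th percentile (19.0% of all ratios) and 1 to 10 with 1 array left out (0.695% to 4.2% of all). Medians of ribosomal proteins outside the name rule, -0.39, became -0.031 with quantile normalization and -0.21 with cyclic loess, those of translation factors, 0.05, became 0.10 under both, and that of other TOP messenger RNAs, -0.03, reversed to 0.039 with quantile normalization. Otherwise the cause of these moves was not tested. Of the named genes' falls, 5 were lost with the mean of a gene's probes, those of Rpsa, Rpl23, Rps24 and Rps4x among them, and 3 with no filter on dim probes (Rpl24, Rplp0 and Rps4x).

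Replicate numbers did not pair the arrays, since same-numbered arrays correlated at 0.13, -0.11 and -0.05 in their deviations from the group means, so a call lost under the replicate block is not read as a weaker effect. The filter, thresholds and array weights changed no direction of the family median. With 3 arrays a group and slide and scan tied to treatment, no difference can be told apart from one between slides.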
